A study of Homo sapiens with 16 samples.

Results

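The genes described here are 9 genes of major histocompatibility complex (MHC) class I antigen presentation. They are the heavy chains HLA-B, HLA-C, HLA-E and HLA-F, the light chain B2M, the peptide transporter subunits TAP1 and TAP2, the loading chaperone TAPBP, and the transactivator NLRC5. They were taken by name, with no threshold on their values, as 9 of the 59609 genes listed in each of 2 tables of normalized read counts. All 9 names were found in both tables. B2M and NLRC5, 2 of the 9, passed the filter on low values (a mean of at least 10 normalized read counts over the 6 libraries of a table), and the other 7 did not in either table.

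The cells were labelled Huh7, a human hepatocellular carcinoma line. Polyadenylated RNA was sequenced from 3 samples given sorafenib, a multikinase inhibitor used against liver cancer, and 3 given its vehicle DMSO. It was also sequenced from 3 samples overexpressing MT1G, a small metal-binding metallothionein, and 3 carrying the empty vector. Open chromatin was mapped by ATAC-seq in 2 samples given DMSO (replicates 1 and 2 by their titles) and 2 given sorafenib (replicates 3 and 4). The labels give no dose, time or way of delivery, and do not say whether the MT1G cells were 1 clone or whether replicates were separate cultures, so the p-values measure the spread between these samples only.

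The RNA libraries held 16549330 to 26781600 assigned reads. MT1G was listed at 140, 130 and 179 normalized read counts in the overexpressing libraries and at 0 in the 3 vector libraries. It was also listed at 189, 158 and 194 with sorafenib and at 0 in the 3 DMSO libraries. Of 17 hepatocyte markers, only HNF4A, a hepatocyte transcription factor, reached a mean of 10 in either table. Albumin (ALB) and APOB, which define hepatocytes, had no read in any of the 12 libraries, so defining markers of the labelled cell type were absent.

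MHC class I molecules show fragments of a cell's own proteins to CD8+ T cells. The proteasome cuts proteins into peptides, TAP1 and TAP2 pump the peptides into the endoplasmic reticulum, and TAPBP (tapasin) holds an empty heavy chain and B2M pair at the transporter until a peptide is bound. HLA-B and HLA-C are classical heavy chains, HLA-E is the ligand of the NKG2A receptor on natural killer cells, and HLA-F is a nonclassical heavy chain. NLRC5 switches the genes on together with the RFX complex, and interferons raise them through IRF1 and the interferon-stimulated response element (ISRE) of their promoters.

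The stretches below show which letters of this kind the promoters hold, for 4 genes of the MHC and for B2M, which lies on another chromosome. They come from RefSeq (GRCh38.p14) and are the reference sequence, not that of these cells. Each reads 5′ to 3′ on the gene's own strand and ends upstream of or close to its start. Capitals mark the ISRE core (GAAA, 2 bases of any kind, GAAA), a shorter core (GAA, 2 bases of any kind, GAAA), the NF-kB consensus and the CCAAT box on either strand, joined where they overlap. HLA-B (chr6:31357219-31357368, minus strand) and HLA-C (chr6:31272132-31272296, minus strand) are followed by TAP1 (chr6:32853755-32853850, minus strand), TAPBP (chr6:33314071-33314146, minus strand) and B2M (chr15:44711361-44711484, plus strand).
HLA-B: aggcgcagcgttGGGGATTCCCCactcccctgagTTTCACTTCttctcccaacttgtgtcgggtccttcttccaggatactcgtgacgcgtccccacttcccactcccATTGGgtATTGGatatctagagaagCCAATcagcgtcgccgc
HLA-C: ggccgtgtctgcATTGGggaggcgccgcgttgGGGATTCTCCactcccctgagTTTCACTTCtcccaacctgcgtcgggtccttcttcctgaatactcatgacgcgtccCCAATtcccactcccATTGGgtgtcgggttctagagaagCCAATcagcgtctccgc
TAP1: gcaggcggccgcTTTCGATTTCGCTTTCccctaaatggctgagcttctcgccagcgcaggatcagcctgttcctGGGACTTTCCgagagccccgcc
TAPBP: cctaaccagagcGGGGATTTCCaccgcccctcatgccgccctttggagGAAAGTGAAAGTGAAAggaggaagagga
B2M: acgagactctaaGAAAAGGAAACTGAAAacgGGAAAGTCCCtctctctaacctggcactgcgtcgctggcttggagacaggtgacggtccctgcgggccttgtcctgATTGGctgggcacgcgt

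Among the 7 genes with a RefSeq promoter window, which runs from 250 bases before to 50 after the start, the ISRE core was found in HLA-F, B2M, TAP1, TAP2 and TAPBP. It was found in 3.57% of all 35116 windows. HLA-B and HLA-C held only the shorter core, found in 7.66% of windows. The NF-kB consensus was found in HLA-B, HLA-C, B2M, TAP1 and TAPBP, against 11.3% of windows, and CCAAT in HLA-B, HLA-C, HLA-F, B2M and TAP1, against 34.6%. The other planned searches covered the X box core (GCAACAG), GAS (TTCNNNGAA, N being any base) and the CRE letters TGACG. The X box core was found in none of the 7 genes, against 4.33% of windows. Only these exact letters were searched, so finding none does not show that these promoters lack an X box. GAS was found only in TAP1, in 1 of its 2 windows, against 7.66%. TGACG was found in HLA-B, HLA-C, B2M and TAP2, against 24.6%. Searched on both strands, these matches describe letters and not bound sites.

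The 4 heavy chains were listed at or near 0 in all 12 RNA libraries. HLA-B (6:31353875-31357179 in GRCh38.p14) had 1 read in the 3 sorafenib libraries and 0 in the DMSO libraries. It had 3 reads in the MT1G libraries and 2 in the vector libraries. HLA-F (6:29723434-29738532) had 2 reads in each sorafenib library, none in DMSO, and none in the MT1G and vector libraries. A count of 0 allows up to 3 reads, or 0.112 to 0.181 RPM depending on the library, and covers counting error only. The reads of HLA-F in sorafenib lie under that limit in each library, so no fold is given.

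HLA-C (6:31268749-31272092) held the most reads of the MHC members. It was listed at 3.38, 2.72 and 4.27 normalized read counts with sorafenib and at 2.25, 2.89 and 6.55 with DMSO. In the other experiment it was listed at 16.9, 10.5 and 5.85 with MT1G and at 8.77, 9.85 and 5.83 with the vector. The groups overlapped in both experiments. Its mean of 9.61 in the MT1G table put it just under the minimum for a test, and no member lay just above.

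HLA-E (6:30489509-30494194) was listed at 6.75, 9.06 and 1.07 with sorafenib and at 1.12, 4.82 and 2.18 with DMSO. It was listed at 5.96, 8.14 and 1.46 with MT1G and at 2.19, 3.58 and 3.50 with the vector. The third library of each treated group lay below all 3 of its controls and the other two above them, so these groups overlapped too.

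The transporter and its chaperone were also listed at or near 0. TAP1 (6:32845209-32853704) had a single read, in sorafenib replicate 2, and none in the other 11 libraries. TAP2 (6:32821831-32838739) had 4 reads with sorafenib, all in replicate 1, and 4 with DMSO, then 2 with MT1G and 2 with the vector. TAPBP (6:33299694-33314078) had 1 read in DMSO replicate 3 and 4 reads over the 3 MT1G libraries. The most reads any of the 7 had in 1 library was 17, for HLA-C in MT1G replicate 1. With so few reads, no change could be read for these 7 genes in either experiment, and the values are not read as a measure of their expression, since housekeeping genes nearby were listed at or near 0 as well.

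**Figure D1:**
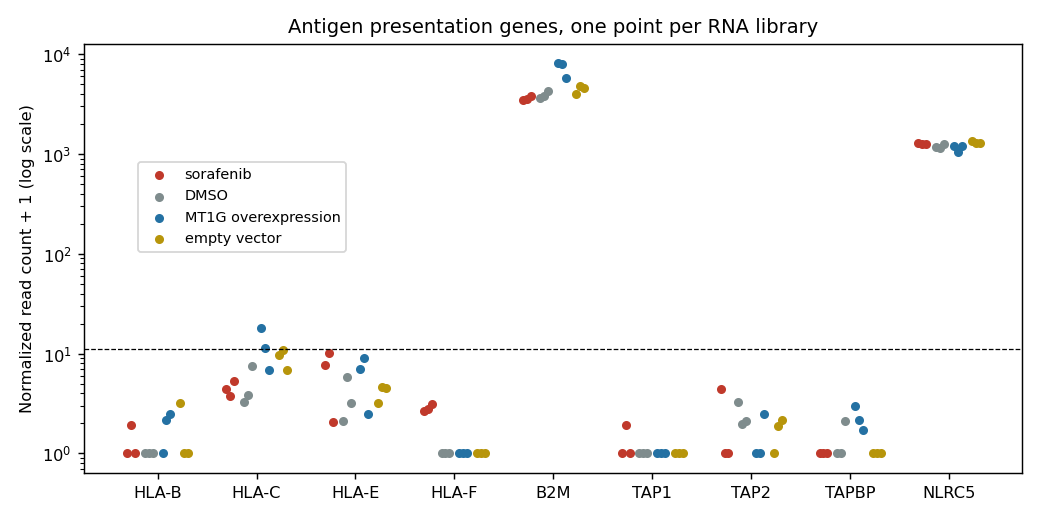
Normalized read count plus 1 (log axis) of the 9 genes, with 1 point for each of the 12 RNA libraries, coloured by group; the dashed line is the minimum mean of 10, plus 1. B2M (3508 to 8071) and NLRC5 (1047 to 1359) stand far above the line in every library, and HLA-C in MT1G replicates 1 and 2 (16.9 and 10.5) holds the only MHC points above the line.

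The low values were shared by the stretch of chromosome 6 around these 7 genes, which includes genes that every cell uses. Between 28.5 and 33.5 Mb, bounds chosen after the values were seen, 18 of 165 protein-coding genes (10.9%) reached a mean of 10 in either table. That share was 66 of 102 (64.7%) in the 5 Mb before and 42 of 62 (67.7%) in the 5 Mb after. Outside the stretch it was 63.8% of 18742 genes over all chromosomes. Inside it, 98 genes had no read in any library.

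Housekeeping genes of the stretch had few reads or none. RPS18, a protein of the small ribosomal subunit, had 1 read over the 6 libraries of the sorafenib experiment, then 2 reads with MT1G and 2 with the vector. TUBB, a beta-tubulin, was listed at 0 to 1.93, and FLOT1, a membrane scaffold protein, had no read in any library. MICA, a stress-induced ligand of the NKG2D receptor, was an exception at 556 to 928 in the sorafenib experiment. MICA, TNXB and CUTA were the 3 genes of the stretch with a mean of at least 100.

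**Figure D2:**
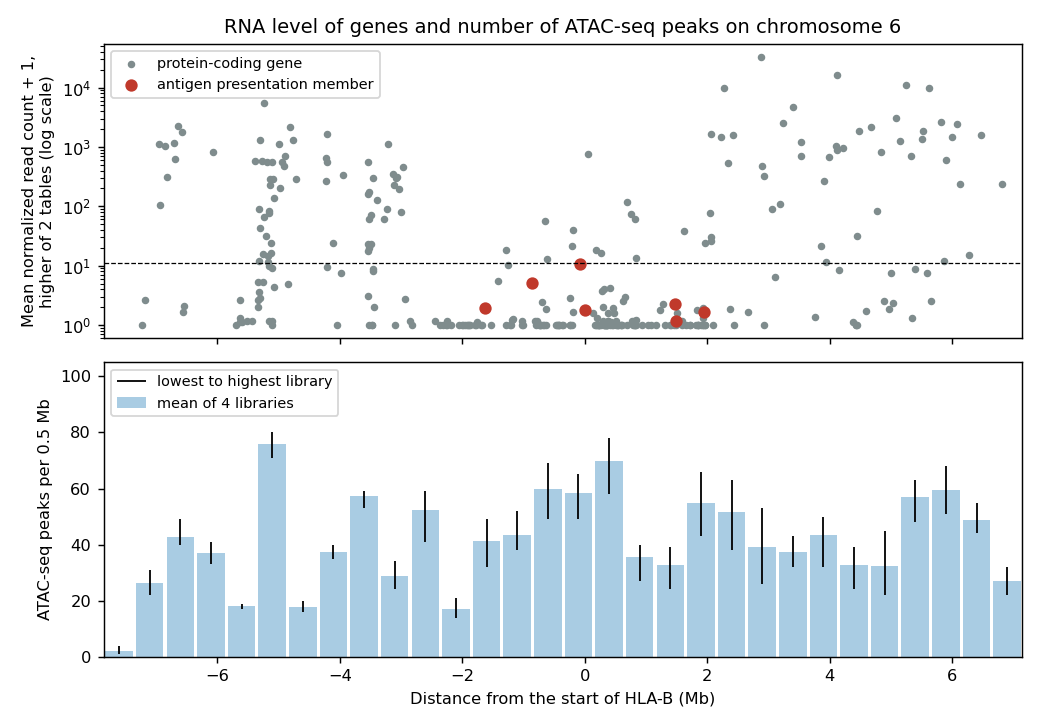
Above, the mean normalized read count plus 1 (log axis, the higher of the 2 tables) of each protein-coding gene by distance from the start of HLA-B in Mb, with the 7 members in red; the dashed line is the minimum mean of 10, plus 1. Below, ATAC-seq peaks per 0.5 Mb as the mean of 4 libraries, with the range: the stretch where most genes lie at the bottom of the upper plot holds more peaks (379 to 517 per library) than either side does in the same library.

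The number of ATAC-seq peaks did not share this gap. The 4 ATAC-seq libraries held 379 and 453 peaks (DMSO) and 513 and 517 peaks (sorafenib) in the stretch, against 322 to 355 in the 5 Mb before and 346 to 479 in the 5 Mb after. Peaks were the authors', called in each library. Of the 7 members with a promoter window, 6 (HLA-C, HLA-F, B2M, TAP1, TAP2 and TAPBP) had a peak over it in all 4 libraries. Over all genes of the stretch with a promoter window, 83 of 147 (56.5%) had a peak over it in all 4 libraries. That share was 103 of 143 (72.0%) on the 5 Mb to either side and 62.2% of 14979 outside the stretch. HLA-B had no peak over its window in any library. A region inside the gene (6:31356443-31356778) was called in DMSO replicate 2 and in both sorafenib libraries, but not in DMSO replicate 1. HLA-E, which has no entry in the promoter table, had a region open in all 4 libraries at 6:30489098-30490419, over its start.

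The peaks over TAP1 had an authors' fold enrichment of 15.1 and 15.0 in the DMSO libraries and 13.7 and 12.5 in the sorafenib libraries. Over B2M they were 16.5, 17.7, 12.5 and 12.8 in the same order. HLA-C had 5.49, 13.8, 12.7 and 9.53, and TAPBP 3.77, 2.74, 4.43 and 5.40. Each value ranks a peak within its own library and shows no change between libraries. TAP1, with 1 read in 12 libraries, and B2M, with at least 3200 in each, thus both lay under peaks in all 4 libraries.

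The pairing of an open promoter with few reads was common in the stretch. Of its 83 genes with a promoter open in all 4 libraries, 69 (83.1%) had a mean under 10 in both RNA tables. On the 5 Mb to either side this was 14 of 103 (13.6%), and outside the stretch 687 of 9320 (7.37%). Which copies of the MHC the RNA reads were aligned to, and whether reads matching more than 1 place were kept, is not given in the sources used here. The part of either in the low counts was not tested.

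B2M, the light chain that pairs with class I heavy chains, was higher with MT1G and did not pass the test with sorafenib. B2M (15:44711517-44718145) was listed at 8071, 7972 and 5746 normalized read counts in the MT1G libraries and at 4027, 4778 and 4607 in the vector libraries. All 3 MT1G libraries lay above all 3 vector libraries, with replicate 3 nearest to them. The means were 7263 ± 1315 and 4471 ± 393 (SD, n = 3 each). In limma's test the log2 change was 0.69 (SE 0.13, 95% interval 0.41 to 0.96, Benjamini-Hochberg adjusted p = 0.00303), a 1.61-fold rise. So 1 of the 2 members tested was called, where 22.8% of all 13914 genes tested were. Without MT1G replicate 2 the log2 change was 0.61 and the call was lost (limma adjusted p = 0.0523). In bulk RNA, fewer cells of a type and less RNA per cell cannot be told apart.

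Of 7 markers of fibroblasts and stellate cells, 5 were tested in the MT1G experiment, and 2 of them, LUM and DCN, rose, by 0.46 and 0.98 on the log2 scale. COL1A1 (0.22), COL3A1 (0.13) and PDGFRB (-0.89) did not pass. The sum over the 7 was 2644 to 3475 with MT1G and 2159 to 2206 with the vector, and LUM made up most of it. HNF4A fell by 0.59 (limma adjusted p = 0.00126), and the sum of the 17 hepatocyte markers was 206 to 237 with MT1G and 307 to 345 with the vector. HNF4A made up most of that sum, so the sum is no separate observation. Among other markers, 2 of 9 leukocyte markers reached a mean of 10 and HLA-DRA and CD3E had no read. Leukocyte sums were 27.8 to 35.8 with MT1G and 33.8 to 38.4 with the vector. Endothelial sums were 39.5 to 48.7 with MT1G and 46.5 to 75.7 with the vector, and the 1 endothelial marker tested did not pass. The part of these markers in the B2M result and in the other MT1G changes was not tested.

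With sorafenib, B2M was listed at 3508, 3557 and 3828, and with DMSO at 3599, 3795 and 4325. The groups overlapped. The log2 change was -0.10 (SE 0.07, 95% interval -0.25 to 0.04, limma adjusted p = 0.198). Neither of the 2 members tested was called with limma, where 70.3% of all 14915 genes were. The count was 0 as well at an unadjusted p under 0.05, with edgeR and with DESeq2 on the recovered reads.

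NLRC5 (16:56989557-57083520) did not pass the test in either experiment. It was listed at 1279, 1259 and 1271 with sorafenib and at 1177, 1154 and 1252 with DMSO. The groups did not overlap, as was so for 73% of genes tested, and the log2 change of 0.09 did not pass (95% interval -0.05 to 0.22, limma adjusted p = 0.220). It was listed at 1194, 1047 and 1188 with MT1G and at 1359, 1296 and 1287 with the vector. Every MT1G library lay below every vector library, as groups did not overlap for 39.4% of genes, and the log2 change of -0.20 had a limma p of 0.0269 before adjustment and 0.0910 after it (95% interval -0.38 to -0.03).

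Both members responded differently to the 2 treatments in a limma fit of all 12 libraries. The sorafenib change of B2M minus its MT1G change was -0.79 (95% interval -1.13 to -0.45, adjusted p = 0.000688). For NLRC5 that difference was 0.29 (95% interval 0.09 to 0.50, adjusted p = 0.0170), while neither of its single changes passed. These are 2 of 2 members tested, where 54.3% of 13748 genes were called. Treatment and experiment cannot be told apart here, since each treatment has its own controls and its own table. The authors' deposited table gave log2 changes of -0.11 and 0.70 for B2M and of 0.09 and -0.20 for NLRC5, sorafenib first.

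**Figure D3:**
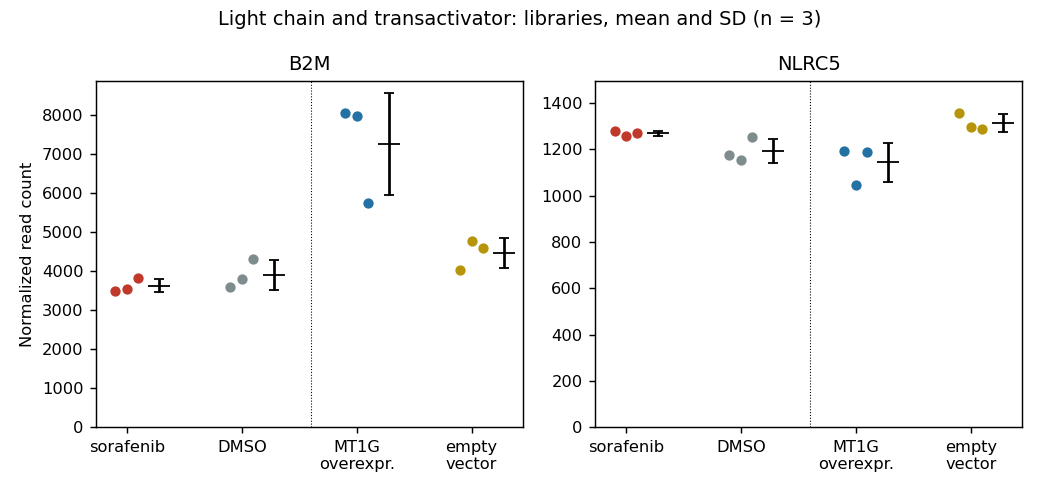
Normalized read count (linear axis from 0) of B2M and NLRC5 in each library, with the mean and SD of 3 libraries beside each group; the dotted line parts the 2 experiments. The MT1G libraries of B2M (5746 to 8071) lie above the vector libraries (4027 to 4778), while NLRC5 stays between 1047 and 1359 throughout.

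NLRC5, the longest of the 9 genes, held the most chromatin regions. Within its span and 2000 bases to either side, 19 regions were called in at least 1 library, of which 5 were open in all 4, where 34.2% of all merged regions were. A single region (16:56999407-56999982) was called in both sorafenib libraries only, where 6.4% of all 220925 merged regions were. In both DMSO libraries only, 3 were called (16:56991709-56992180, 16:57013197-57013775 and 16:57075555-57075829), where 12% of merged regions were. The other 10 were mixed. B2M had 3 regions, each open in all 4 libraries.

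The partners of peptide loading outside the MHC changed in both directions with sorafenib. Of 6 genes, 3 rose and 3 fell, with a median log2 change of 0.01 against -0.02 over all genes tested (34.4% of which rose and 35.8% fell). ERAP1 and ERAP2, the aminopeptidases that trim peptides, rose by log2 changes of 0.28 (SE 0.08) and 1.86 (SE 0.16), with limma adjusted p of 0.00399 and 2.44e-08. ERAP2 went from 53.5 ± 8.10 normalized read counts in DMSO to 196 ± 23.1 in sorafenib (SD, n = 3). TAPBPL, a tapasin-related peptide editor, rose by 0.51. The folding proteins fell, with CANX (calnexin) at -0.61, CALR (calreticulin) at -0.60 and PDIA3 (ERp57) at -0.26.

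Markers of cell types moved with sorafenib as well. The summed level of the fibroblast and stellate markers was 1039 to 1079 with sorafenib and 2338 to 2591 with DMSO, with LUM at -1.99 and DCN at -1.10, while COL3A1 rose by 0.87. HNF4A fell by 1.56, and the hepatocyte sum, again mostly HNF4A, was 103 to 163 against 339 to 356. Leukocyte sums were 40.5 to 48.1 and 36.6 to 48.0. They overlapped, but of the 2 leukocyte markers tested 1 rose and 1 fell, with log2 changes of 1.19 and -1.39. Endothelial sums were 36.3 to 57.1 with sorafenib and 69.4 to 79.7 with DMSO. Of the 2 endothelial markers tested, 1 fell, with a log2 change of -1.39, and the other did not pass. The part of these markers in the sorafenib changes of the lists was not tested.

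With MT1G, 3 of these 6 rose and the other 3 did not pass, with a median of 0.27 against -6.58e-05 over all genes tested (11.5% of which rose and 11.3% fell). ERAP1 rose by 0.34, ERAP2 by 0.88 and TAPBPL by 0.77 on the log2 scale. The ERAP2 call was lost without MT1G replicate 2 (limma adjusted p = 0.0965) and without vector replicate 2 (0.111). CALR (0.20), CANX (0.12) and PDIA3 (0.10) did not pass. The 2 responses of CALR and CANX differed, by -0.80 and -0.73 (limma adjusted p = 4.34e-07 and 3.28e-06). For ERAP1 the difference was -0.07 (adjusted p = 0.621).

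Genes of the proteasome, which cuts the peptides, fell with sorafenib or did not pass. PSMB8 and PSMB9, the interferon-induced proteasome subunits, lie in the same stretch of chromosome 6 and had peaks over their promoters in all 4 ATAC-seq libraries. In each library the peak over PSMB9 was the same peak as that over TAP1, so it is no separate observation. PSMB8 had no read in any RNA library, and PSMB9 had 3 with sorafenib, 1 with DMSO and 2 with MT1G. Of the other 4 genes of the immunoproteasome list, PSME1 and PSME3, of the proteasome activators, fell with sorafenib by 0.46 and 0.47 on the log2 scale. The constitutive catalytic subunits that PSMB8, PSMB9 and PSMB10 replace all fell too, with PSMB5 at -0.97, PSMB7 at -0.32 and PSMB6 at -0.26 (limma adjusted p = 3.71e-09, 0.000121 and 0.00189). Of all genes tested with sorafenib, 35.8% fell and 70.3% were called in either direction. PSMB5 went from 5215 ± 575 to 2644 ± 59.2 (SD, n = 3). With MT1G, limma called 0 of these 7 genes, where it called 22.8% of all genes tested. With edgeR and DESeq2 on the recovered reads the count was 0 as well. At an unadjusted p under 0.05 there were 2, 1 in each list.

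Of 14 factors that act on class I promoters, 6 rose and 4 fell with sorafenib, with a median log2 change of 0.11. These shares are near those over all genes (34.4% higher and 35.8% lower), so the count is no result about the list. IRF1, the interferon-induced activator that binds the ISRE, went from 314 ± 29.1 normalized read counts to 2073 ± 145 (SD, n = 3), a log2 change of 2.72 (SE 0.08, limma adjusted p = 1.23e-13). IRF2, which binds the same element, fell by 1.06. The NF-kB subunits rose, NFKB2 by 1.61, NFKB1 by 0.57 and RELA by 0.31. In the RFX complex that NLRC5 joins, RFXAP rose by 1.33 and RFXANK fell by 0.58, while RFX5 (0.07) did not pass. CREB1 fell by 0.47.

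With MT1G, 4 of the 14 rose, where 11.5% of all genes did, and the other 10 did not pass, with a median of 0.01. The count was 2 without vector replicate 2. IRF1 rose by 0.64 (SE 0.11, limma adjusted p = 0.000210), from 282 ± 7.27 to 439 ± 21.0 (SD, n = 3). CREB1 rose by 0.44 and NFKB2 by 0.31. The CREB1 call was lost without vector replicate 2 (limma adjusted p = 0.0502). RELA (-0.05), NFKB1 (0.0017) and RFX5 (-0.0016) did not pass. The rise of IRF1 was larger with sorafenib, by 2.08 (limma adjusted p = 1.24e-11).

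The interferon-gamma pathway, whose list shares genes such as IRF1 and CIITA with the promoter factors, had 4 of 10 genes higher and 4 lower with sorafenib, near the shares over all genes (34.4% and 35.8%). SOCS1, the feedback inhibitor of JAK kinases, rose by 3.34, JAK2 by 1.02 and the receptor chain IFNGR1 by 0.52. GBP1, a GTPase induced by interferon gamma, fell by 0.46 and JAK1 by 0.22. With MT1G, 6 of the 10 rose, where 11.5% of all genes did, and the other 4 did not pass. GBP1 rose by 1.01 (SE 0.12, limma adjusted p = 5.93e-06), JAK2 by 0.81 and IFNGR1 by 0.51. The 2 responses of GBP1 differed by -1.48 (adjusted p = 3.74e-07). SOCS1 rose by 1.25 with MT1G, a call lost without any 1 of 5 libraries (limma adjusted p = 0.0505 to 0.136).

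Most interferon-stimulated genes tested were higher with MT1G, as B2M was. Of 17 tested, 13 rose, where 11.5% of all genes did, with a median log2 change of 2.08 against -6.58e-05 over all genes. OAS2, among the 13, passed the filter on low values only through the MT1G group (mean 284, against 1.56 with the vector). ISG15, a ubiquitin-like protein, stood at 13041, 12200 and 13564 normalized read counts with MT1G and at 701, 780 and 744 with the vector. OASL, a relative of the 2-5A synthetases, went from 181 ± 15.7 to 12965 ± 829 (SD, n = 3). With sorafenib 3 of 16 rose and 6 fell, where 34.4% and 35.8% of all genes did, with a median of -0.05. Without DMSO replicate 3, 5 rose and 5 fell. OAS1 fell by 1.33 and OASL by 1.11 there, and IFIT3 rose by 0.86. Whether the rise of these genes had a part in that of B2M was not tested.

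**Figure D4:**
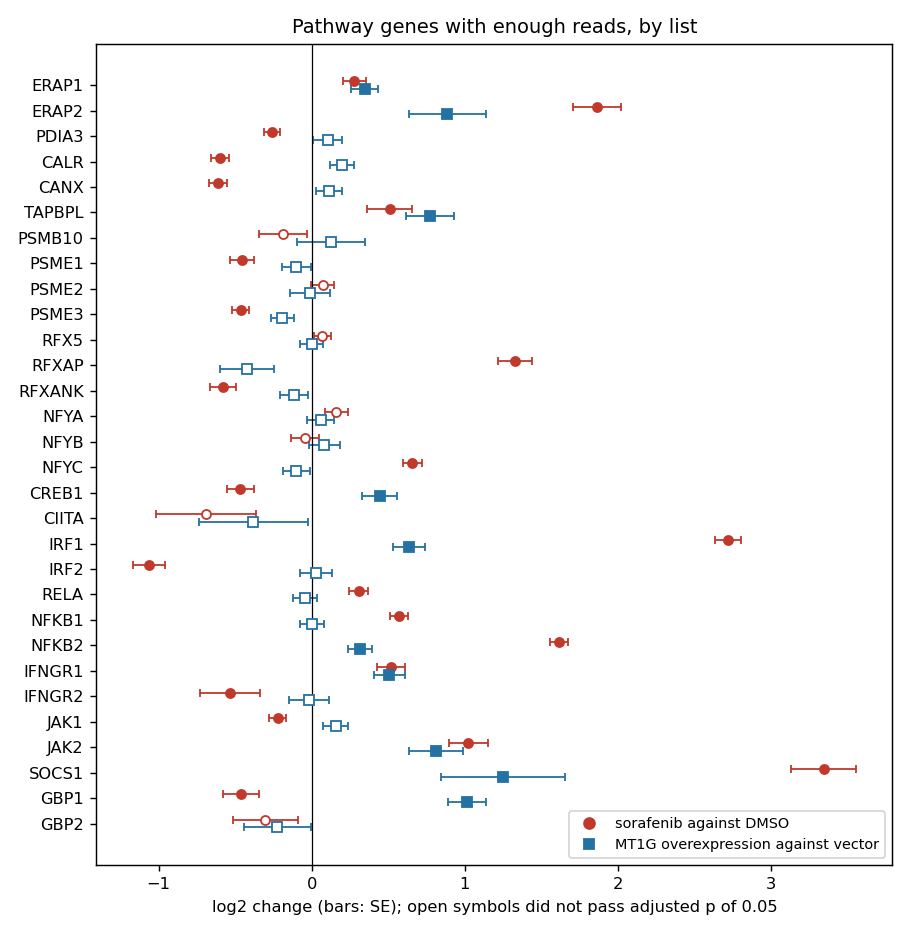
Log2 change (bars: SE) of all but 1 of the tested genes of the loading partners, immunoproteasome, class I promoter factor and interferon-gamma lists, in that order from the top, for sorafenib against DMSO (circles) and MT1G against vector (squares); open symbols did not pass an adjusted p of 0.05. IRF1 (2.72 and 0.64), ERAP2 (1.86 and 0.88) and JAK2 (1.02 and 0.81) passed in both, and CALR and CANX passed with sorafenib alone.

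For a description of likeness over the 12 libraries, log2(value + 1) of each gene was first centred on the mean of its controls in each experiment. Of 10137 genes with a mean of at least 100 in both tables, those most alike to B2M were AL137800.1, LMBRD1, CCN3, PLAUR and CHST15. Their Pearson correlations ran from 0.986 down to 0.947. PLAUR, the urokinase receptor, had log2 changes of -0.11 with sorafenib and 1.24 with MT1G. For NLRC5 the most alike were RIPOR1, STK11IP, PAXX, NLE1 and MTA2, at 0.982 down to 0.979. The 12 points fall into the 4 groups, so these correlations are a description and share the differences between groups. The centring gives both control groups the same mean, so those differences are the changes with sorafenib and with MT1G.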

How the data were processed

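The authors' deposited RNA signal values are normalized read counts per gene, per the file headers, and the deposited log2 changes and adjusted p-values are the authors' own. The submitters' processing notes name MACS2 2.2.7.1, Bowtie2 2.4.1, featureCounts 1.6.1, HISAT2, SAMtools, Picard, DESeq2 and cutadapt, and the hg38 build, and leave their use open. The authors' deposited ATAC-seq peaks carry a fold enrichment ratio and a −log10 q per peak. Whole reads were recovered from the step between low values (100% of values whole within 0.001 reads). Column numbers were taken as the titles' replicate numbers.

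Log2(value + 1) was tested with limma 3.58.1 (R 4.3.3, trend and robust, two-sided) on genes with a mean of at least 10, with Benjamini-Hochberg adjustment and a threshold of 0.05, each experiment alone and both in 1 fit for the difference of responses. Fold changes are on that scale and understate those of low genes. edgeR 4.0.16 and DESeq2 1.42.0 on the recovered reads were alternatives. The fit was tested on simulated data. Members and lists were chosen with earlier results of these data known. Named were all members, up to 3 genes per list, direction and comparison by smallest p, and IRF1, RFX5, RELA and NFKB1 in any case. One further gene is counted in the lists and not reported here. Alikeness to HLA-B, HLA-C and TAP1 was planned, but B2M and NLRC5 were used, since the former hold too few reads. The shorter ISRE core and gene spans were added after the data were seen. A promoter was open where a peak overlapped it by at least 1 base. The tables give no gene lengths, so levels were not compared between genes.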

Additional observations from a re-analysis of the deposited data

How the results depend on the processing

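Sorafenib called 0 of the members in the alternatives run except without the filter on low values, where it called 1, HLA-F with its 6 reads (limma adjusted p = 0.0385). With MT1G the count of 1 fell to 0 with an absolute log2 change of at least 1 as well, and leaving out 1 library gave 0 to 1, the 0 being without MT1G replicate 2. The difference of responses fell from 2 members to 0 with that same size limit, and was 2 in the other alternatives. Leaving out 1 library gave B2M log2 changes of 0.60 to 0.85 with MT1G. The other pathway genes called fell from 44 to 12 (sorafenib) and from 18 to 5 (MT1G) with the size limit. The promoters open in 4 libraries stayed at 6 with a −log10 q of at least 5, equal peak numbers, half-window overlap or wider windows, and came to 8 with gene spans. Of 79 alternatives for counts 73 gave a count within 1.5 times the first, and of 928 for single genes 898 kept direction and call. With MT1G, RFX5 turned sign with TMM factors (0.0202), DESeq2 (0.0025) and edgeR (0.0052). Leaving out 1 library gave it -0.0163 to 0.0225, and NFKB1 -0.0425 to 0.0329. The cause was not tested. With the replicate number as a block, B2M with MT1G had a limma adjusted p of 4.02e-11, with 1 member called. Its log2 change was 0.69 with and without the block, so that p shows no larger change. Over the 13 alternatives its adjusted p ran from 4.99e-15 (no filter on low values) to 0.0523 (without MT1G replicate 2), both with limma. The size of p thus depends on the setting. Deviations from the group means correlated at -0.14 to 0.04 between same-numbered libraries and at -0.06 to 0.13 between the others. These values show no pairing, but with n = 3 per group they cannot exclude a shared culture or batch. The 7 members of chromosome 6 have too few reads for a change to be read, and why they are few was not tested.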

Other observations

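Of 8 relatives of class I molecules tested outside the members, 3 rose and 3 fell with sorafenib, near the shares over all genes (34.4% and 35.8%). RAET1L, a ligand of the NKG2D receptor of natural killer cells, rose from 3.68 ± 3.54 to 57.4 ± 11.5 normalized read counts (SD, n = 3). It passed the filter on low values only through the sorafenib group. ULBP2 and ULBP1, of the same ligand family, rose by 0.68 and 0.82 on the log2 scale. HFE, the class I-like regulator of iron uptake that pairs with B2M, fell by 1.07 (SE 0.09, limma adjusted p = 1.97e-08), and FCGRT, the neonatal Fc receptor, fell by 0.52. With MT1G, 4 of 9 rose, where 11.5% of all genes did, and 2 did without MT1G replicate 2. They included RAET1L by 2.35, RAET1E by 1.72 and MR1, which presents vitamin metabolites, by 0.67. MR1 fell by 0.41 with sorafenib, a call lost without sorafenib replicate 2 and without DMSO replicate 2 or 3 (limma adjusted p = 0.203, 0.0778 and 0.0756). The 2 responses of HFE differed by -1.31 (adjusted p = 1.10e-08). ULBP and RAET1 genes are close copies, and reads may be split between them.

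CD274, which encodes the checkpoint ligand PD-L1, rose from 21.8 ± 1.38 to 69.6 ± 7.13 normalized read counts with sorafenib (SD, n = 3), a log2 change of 1.63 (limma adjusted p = 3.51e-06). PVR, a ligand of TIGIT, rose by 0.71, while NECTIN2 and CD47 fell by 0.44 and 0.21. CD47 lost its call without DMSO replicate 1 (limma adjusted p = 0.0691). With MT1G, CD274 rose by 1.09, a call lost without MT1G replicate 2 or vector replicate 2 (limma adjusted p = 0.120 and 0.0703). Of 9 genes of a list drawn up for class I turnover and surface removal, 3 rose and 4 fell with sorafenib. The list holds ubiquitin ligases and membrane proteases, and whether each of them acts on class I was not tested. Over all genes tested, 34.4% rose and 35.8% fell. MARCHF9, a ubiquitin ligase, fell by 1.84 on the log2 scale, TMEM127 by 0.81 and WWP2 by 0.21. SPPL2A rose by 0.32, MARCHF4 by 1.19 and SUSD6 by 0.37. WWP2 lost its call without sorafenib replicate 3 (limma adjusted p = 0.062). With MT1G, 1 of 8 was called, where 22.8% of all genes were, and this was SPPL2A, which rose by 0.35.

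None of 10 class II presentation genes reached a mean of 10 in either table. CUTA, one of the 3 genes of the stretch with a mean of at least 100, ranged from 50.7 to 3233 between libraries and within groups, such as 205, 2865 and 3176 in the 3 DMSO libraries. BRD2 was listed at 147 in DMSO replicate 2 and at 11.2 to 21.9 in the other 5 libraries of that table. Of 749 windows of 1 Mb with at least 5 genes whose promoters were open in all 4 libraries, 8 had 60% or more of those genes under a mean of 10. The stretch on chromosome 6 holds 4 of them, and the others lie on chromosomes 22 (23 to 24 Mb), 17 (38 to 39 Mb), 11 (5 to 6 Mb) and 19 (54 to 55 Mb).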
